A study of Bos taurus with 12 samples.

Results

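The miRNAs described here are the products of the mir-23a/27a/24-2 and mir-23b/27b/24-1 hairpin clusters in bovine plasma extracellular vesicles (EVs). They were chosen by name, with no use of their values, and comprised 7 of the 783 listed miRNAs: miR-23a, miR-23b-3p, miR-23b-5p, miR-24-3p, miR-27a-3p, miR-27a-5p and miR-27b. EVs are membrane-bound particles that cells release into body fluids, and they carry small RNAs. The study sequenced EV miRNAs of beef-cross heifers to ask whether plasma miRNAs mark how the ovary will respond to superstimulation, a course of follicle-stimulating hormone (FSH) given so that many follicles ovulate. Plasma was taken on Day 7 of an unstimulated cycle (U) and on Day 7 of a superstimulated cycle (S) from 6 heifers, of which 3 were high (H) and 3 were low (L) responders by their ovarian response. This gave 4 groups of 3 libraries: UL and UH, in which no FSH had been given, and SL and SH. For SL and SH the heifers had received FSH, with prostaglandin F2α during that treatment, and been inseminated. All heifers had first had their cycles synchronized, for which prostaglandin F2α was also given. H and L were assigned from the response in the S cycle, so that UH and UL were sampled before the response was known. Per the study the same 6 heifers gave both cycles. Equal library numbers were read as 1 heifer, an assumption that the labels do not state. Each library came from 1 heifer.

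miRNAs are short RNAs that repress mRNAs whose 3′ untranslated regions pair with the seed, bases 2 to 8 of the miRNA. A hairpin precursor is cut into a duplex of a 5p and a 3p arm, and usually 1 arm is kept in the silencing complex while the other is degraded. The miR-23/27/24 family is encoded in mammals as 2 paralogous clusters, each a single primary transcript with a mir-23, a mir-27 and a mir-24 hairpin, and is known from endothelial, muscle, fat and immune cells. In the ARS-UCD2.0 RefSeq annotation MIR23A, MIR27A and MIR24-2 were neighbours on 1 chromosome, and MIR23B, MIR27B and MIR24-1 lay together within AOPEP, an aminopeptidase gene. miR-23 and miR-27 have a separate mature sequence for each cluster, whereas both mir-24 hairpins give the same miR-24-3p, which therefore cannot be assigned to either cluster.

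The mature sequences, as deposited with the values, show how the products are related. They are given 5′ to 3′ in DNA letters with the seed in capitals, first the arm that held nearly all reads and then the rarer arm.
bta-miR-23a: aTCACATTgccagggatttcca
bta-miR-23b-3p: aTCACATTgccagggattaccac
bta-miR-27a-3p: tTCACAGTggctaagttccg
bta-miR-27b: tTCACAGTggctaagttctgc
bta-miR-24-3p: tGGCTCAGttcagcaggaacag
bta-miR-23b-5p: gGGTTCCTggcatgctgattt
bta-miR-27a-5p: aGGGCTTAgctgcttgtgagca

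miR-23a and miR-23b-3p share a seed, and so do miR-27a-3p and miR-27b. The miR-23 paralogs were identical over their first 18 bases and differed by T19A, written as the base of miR-23a, the position counted from 1 at the 5′ end, and the base of miR-23b-3p. miR-27a-3p and miR-27b were likewise identical over 18 bases and differed by C19T. In each pair the product of the b cluster was 1 base longer in the table. A read that stops before position 19 cannot be assigned to 1 paralog, and how such reads were split is not given in the sources used here. The seeds of the 5p arms and of miR-24-3p were not shared with any other member, and no miRNA outside the 7 had the seed of a member. A further product, listed as miR-24 and corresponding to the 5p arm of a mir-24 hairpin, had 0 reads in all 12 libraries.

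The 12 libraries held between 21466 and 77433 reads of known miRNAs, with a median of 41190. A count of 0 therefore allows a level of up to 38.7 reads per 1000000 in the deepest library, SH3, and up to 139.8 in the shallowest, SH2. Levels below are normalized reads, the reads of a miRNA scaled to the mean depth of the 12 libraries with trimmed mean of M-values (TMM) factors. Reads of different miRNAs were compared without correction for ligation preference. Plasma EVs come from many tissues, and fewer vesicles of a source and less of a miRNA per vesicle cannot be told apart.

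Together the 7 miRNAs had 4678 reads, or 0.876% of all known miRNA reads, with a range of 0.617% in SH3 to 1.12% in UH2 and SL2. The arms that dominate in most tissues dominated here too. miR-27b (1275 reads), miR-24-3p (1182), miR-23a (1116), miR-23b-3p (700) and miR-27a-3p (388) held 99.6% of the reads. miR-23a was the most abundant member in 5 libraries, miR-27b in 4 and miR-24-3p in 3, so these 3 had no fixed order. The mean levels over 12 libraries were 106.5 normalized reads for miR-27b, 97.8 for miR-24-3p and 87.6 for miR-23a, and these neighbours in the order did not differ beyond their spread between libraries. miR-23b-3p averaged 57.7 and miR-27a-3p averaged 32.3. Ranked among all miRNAs of a library, miR-27b was placed between 32 and 50, miR-24-3p between 36 and 56, and miR-27a-3p between 55 and 93.

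miR-23a, which in haemolysis checks serves as the stable reference for the erythrocyte miRNA miR-451, varied most. In UL its level was 90.3, 99.3 and 109.7 normalized reads, and in UH it was 32.3, 141.6 and 79.7. In SL it was 62.6, 130.0 and 97.4, and in SH 48.3, 66.3 and 93.4. The UL libraries lay close together, whereas UH held both the lowest and the highest of the 12 values, so that all 4 groups overlapped. The lowest, UH1, rested on 22 reads. The variance of miR-23a within groups was 14.8 times that of counting error, against 2.0 times for its paralog and 13.9 times for miR-27b. Its mean coefficient of variation within groups was 35.5%, close to the 34.7% of miR-27a-3p.

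miR-23b-3p, the product of the b cluster with the same seed, was steadier. Its levels were 60.8, 65.0 and 67.2 in UL, 57.3, 82.5 and 59.4 in UH, and 46.7, 67.0 and 60.3 in SL. In SH the levels were 30.9, 56.3 and 38.6. All 3 SH values lay below all 3 UH values, with 56.3 as the highest in SH and 57.3 as the lowest in UH, and also below all 3 UL values, while SH and SL overlapped. Such separations of 3 values from 3, here and below, are descriptions only. The share of all miRNAs that separated in the same way was not counted.

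miR-24-3p, which is known for repressing cell cycle genes, had the smallest coefficient of variation within groups, 15.1% on average. It was at 98.6, 89.4 and 108.7 normalized reads in UL and at 136.5, 131.6 and 109.0 in UH. After superstimulation it was at 72.5, 120.2 and 86.5 in SL and at 83.3, 72.3 and 65.1 in SH. The UH libraries stood above all of UL, although only narrowly (109.0 against 108.7), and above all of SH. UL also lay above all of SH, while SL overlapped both.

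miR-27a-3p and miR-27b, which share a seed and are known as repressors of adipogenic and angiogenesis-related genes, differed in level. miR-27a-3p was at 31.3, 30.7 and 37.5 in UL, 44.0, 51.9 and 21.8 in UH, 36.8, 51.2 and 12.4 in SL and 28.2, 26.1 and 15.7 in SH. miR-27b was at 97.7, 97.5 and 107.7 in UL, 95.4, 182.8 and 83.5 in UH, 73.7, 107.4 and 66.5 in SL and 151.7, 138.6 and 75.3 in SH. The 4 groups overlapped for miR-27b. For miR-27a-3p all 3 SH values lay below all 3 UL values, and the other pairs of groups overlapped. The highest miR-27b value came from UH2, the library that also had the highest miR-23a, and the next from SH1 and SH2, where miR-23a was below its median over the libraries.

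**Figure D1:**
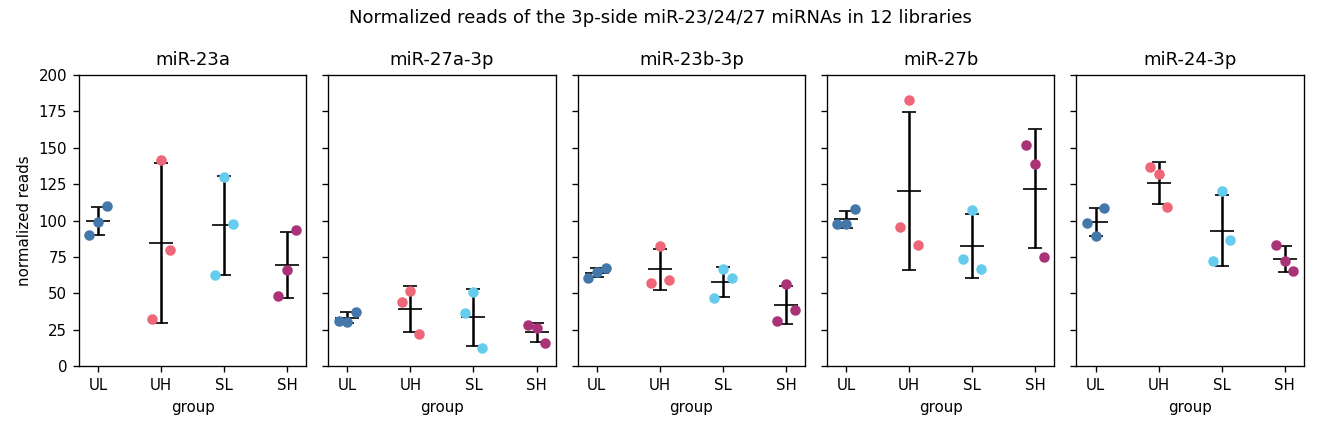
Normalized reads (y axis) of the 5 abundant arms in each of the 12 libraries (points, replicates 1 to 3 from left to right) by group (x axis), with the group mean and SD (bars, n = 3). The UL libraries cluster tightly for every miRNA, while miR-23a and miR-27b spread widely in UH. miR-24-3p in UH (109.0 to 136.5) lies above UL and SH.

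The rarer arms were near the detection limit. miR-27a-5p had 4, 0 and 3 reads in UL, 0 in each UH library, 2, 0 and 0 in SL and 0, 1 and 0 in SH. It made up 10 of the 398 reads of both miR-27a arms, or 2.51% (exact Clopper-Pearson 95% interval 1.21% to 4.57%). Its share was 6.19% in UL (7 of 113 reads, interval 2.53% to 12.3%) and 0 of 132 reads in UH, where the same exact interval reaches up to 2.76% and so overlaps that of UL. The 7 UL reads came from 2 of the 3 libraries. Overlap of intervals is not a test of a difference, and the shares were not tested.

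miR-23b-5p had 0 reads in every UL library, 0, 1 and 2 in UH, 1, 1 and 2 in SL and 0 in every SH library. It made up 7 of the 707 reads of both miR-23b arms, or 0.99% (interval 0.399% to 2.03%). The share was 2.68% in SL (4 of 149 reads, interval 0.736% to 6.73%), against 0 of 206 reads in UL and 0 of 115 in SH, where the exact intervals reach up to 1.77% and 3.16% and so overlap that of SL. SL was the only group with reads in all 3 libraries. Reads had been collapsed by molecular index in the study, and these intervals cover counting error only. Their overlap does not show that the shares were equal, and no test of the shares was run.

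Ratios between products of 1 library do not depend on the scaling between libraries. miR-23a made up 61.5% of the reads of the miR-23 pair over all libraries (1116 of 1816, exact 95% interval 59.2% to 63.7%). In 11 libraries its share lay between 54.1% and 70.8%. UH1 stood apart at 36.1% (22 of 61 reads, interval 24.2% to 49.4%), the only library in which miR-23b-3p exceeded miR-23a. The low miR-23a of UH1 was therefore not shared by its paralog, nor by miR-24-3p, which was at its highest level there.

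miR-27b made up 76.7% of the reads of the miR-27 pair (1275 of 1663, interval 74.6% to 78.7%), so that the b cluster product led for miR-27 and the a cluster product for miR-23. The miR-27b share was 84.3%, 84.1% and 82.8% in SH1, SH2 and SH3, and 66.7%, 67.7% and 84.3% in SL1, SL2 and SL3. It lay between 74.1% and 76.1% in UL and between 68.4% and 79.3% in UH. The SH libraries were uniformly high, and SL3, with only 51 reads of the pair, reached the same share.

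**Figure D2:**
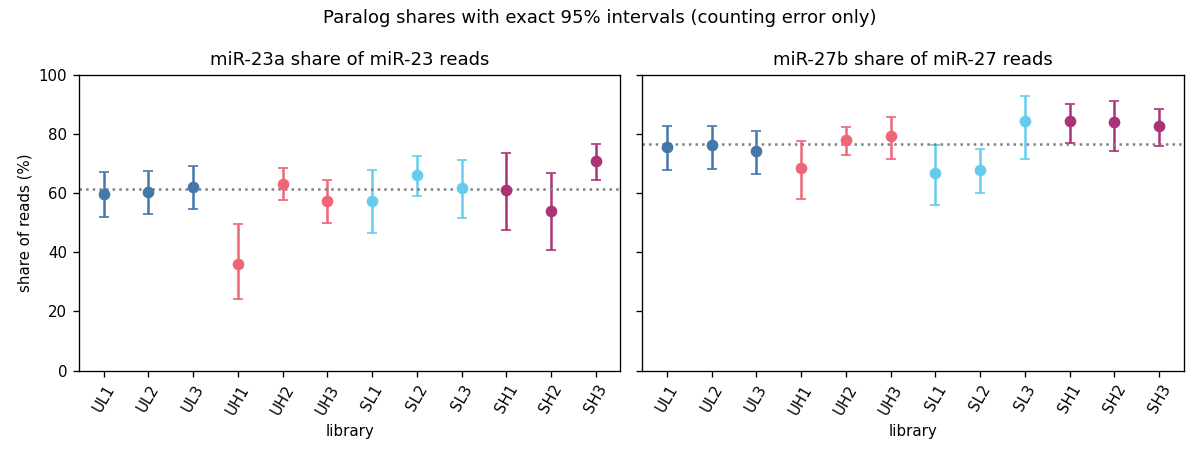
Share of miR-23a in the miR-23a plus miR-23b-3p reads (left) and of miR-27b in the miR-27a-3p plus miR-27b reads (right), in percent (y axis), for each library (x axis), with exact 95% intervals that cover counting error only. The dotted lines mark the shares over all libraries, 61.5% and 76.7%, and UH1 stands apart on the left at 36.1%.

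For each pair and for the hairpin types, 4 log2 ratios (with 1 read added to each side) were compared between UH and UL, between SH and SL, and between cycles within heifers. None of the 12 differences passed a two-sided exact permutation test after Benjamini-Hochberg adjustment, the lowest adjusted value being 0.609. With 3 libraries against 3 the smallest p this test can give is 0.1, and with 6 heifers 0.03125. With these limits no adjusted value over the 12 tests could be as low as 0.05. That none passed was therefore fixed in advance and does not show that the ratios were unchanged. The widest difference was in the log2 ratio of miR-27a-3p to miR-27b, which was -2.31 ± 0.08 (SD, n = 3) in SH and -1.44 ± 0.74 in SL, a difference of -0.87 (exact permutation p = 0.2). The log2 ratio of miR-24-3p to the sum of both pairs was lower in every SH library than in every SL library, at -1.78 ± 0.17 against -1.53 ± 0.08 (SD, n = 3), a difference of -0.26 with the smallest p possible (exact permutation p = 0.1).

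The log2 ratio of the miR-23 pair to the miR-27 pair, which compares neighbouring hairpins, was -0.35 ± 0.85 in SH and 0.43 ± 0.51 in SL (SD, n = 3, exact permutation p = 0.3). In UH it was -0.10 ± 0.52 and in UL 0.29 ± 0.06 (exact permutation p = 0.4, n = 3). Within heifers this ratio differed by -0.06 ± 0.44 from U to S (SD, n = 6 heifers, exact permutation p = 0.781). The miR-23a to miR-23b-3p log2 ratio differed by -0.49 between UH and UL (exact permutation p = 0.5, n = 3), and by -0.03 when UH1 was left out.

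Group differences in level were fitted with limma on log2(normalized reads + 1) over all miRNAs with at least 1 read in 2 or more libraries of a compared group. A miRNA was called, by the thresholds of the study, at a log2 fold change of at least 1 in size and an unadjusted P of at most 0.05. None of the members passed a Benjamini-Hochberg adjustment over all miRNAs in any comparison. No abundant arm was called in any comparison, and the calls that did arise were all of 5p arms with at most 4 reads in a library. In the pairwise comparisons each called arm passed the filter only through the group in which it had reads, and the other group had none. A call was therefore open in that direction only, and these calls are not separate evidence of a group difference.

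UH vs. UL asks whether EV miRNAs differed before superstimulation. Of the 7 members tested 1 was called, miR-27a-5p, where 2.64% of all 227 miRNAs tested were called. Its fitted log2 fold change was -1.41 (SE 0.66, limma unadjusted P = 0.0469, adjusted P = 0.929). Since UL had at most 4 reads and UH none, both groups lay near the limit of 3 reads. The fitted value is therefore not read as the size of a change. miR-24-3p was 1.27 times as high in UH (log2 0.34, 95% interval -0.25 to 0.94, limma adjusted P = 0.929). miR-23a was 0.723 times as high in UH (log2 -0.47, interval -1.34 to 0.41), and without UH1 its log2 difference was 0.10. The other log2 differences were 0.03 for miR-23b-3p, 0.15 for miR-27a-3p and 0.17 for miR-27b, and the median of the 5 abundant arms was 0.15 against 0.04 over all miRNAs tested.

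SH vs. SL asks the same on Day 7 of the superstimulated cycle. miR-23b-5p was the 1 member called of 6 tested, against 5.47% of 201 miRNAs (fitted log2 -1.39, SE 0.60, limma unadjusted P = 0.0424, adjusted P = 0.666). It rested on 4 reads in SL and 0 in SH, so its fitted value is likewise not read as the size of a change. The abundant arms had differences of both signs, and none passed the test. miR-23a, miR-23b-3p, miR-24-3p and miR-27a-3p had log2 differences of -0.46, -0.49, -0.31 and -0.33, whereas miR-27b had 0.53 (95% interval -0.36 to 1.41, limma adjusted P = 0.697). The median of the 5 was -0.33, against -0.09 over all miRNAs tested.

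UH vs. SH compares the high responders between cycles. None of 6 members tested was called with limma, and none had an unadjusted P under 0.05, while 5.66% of 212 miRNAs were called. miR-24-3p was 1.70 times as high in UH (log2 0.77, SE 0.43, 95% interval -0.13 to 1.66, limma unadjusted P = 0.0894, adjusted P = 0.736). With heifer as a block the unadjusted P of miR-24-3p was 0.0488 (limma adjusted P = 0.575), and with all 4 groups in the fit it was 0.0197 (adjusted P = 0.377), with a log2 difference still under the threshold of 1. miR-23b-3p and miR-27a-3p had log2 differences of 0.68 each, with intervals of -0.34 to 1.69 and -0.51 to 1.87. miR-23a (0.10) and miR-27b (-0.04) were near 0, with wide intervals of -1.02 to 1.21 and -1.01 to 0.93. The summed level of the endothelial markers miR-126-3p and miR-126-5p, both with reads in all libraries, was likewise lower in SH, at 1686 to 7665 (median 2242), than in UH, at 4656 to 11880 (median 6523), and its part in these values was not tested.

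UL vs. SL compares the low responders between cycles. miR-23b-5p was the 1 member called of 7 tested, against 2.34% of 214 miRNAs (fitted log2 -1.39, SE 0.55, limma unadjusted P = 0.0286, adjusted P = 0.702). With heifer as a block it was not called. It had 0 reads in UL and 4 in SL, so here too the fitted value is not read as the size of a change. The 5 abundant arms were all slightly higher in UL, with log2 differences from 0.10 for miR-23a to 0.32 for miR-27b (interval of the latter -0.25 to 0.88), and a median of 0.16 against 0.07 over all miRNAs tested.

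**Figure D3:**
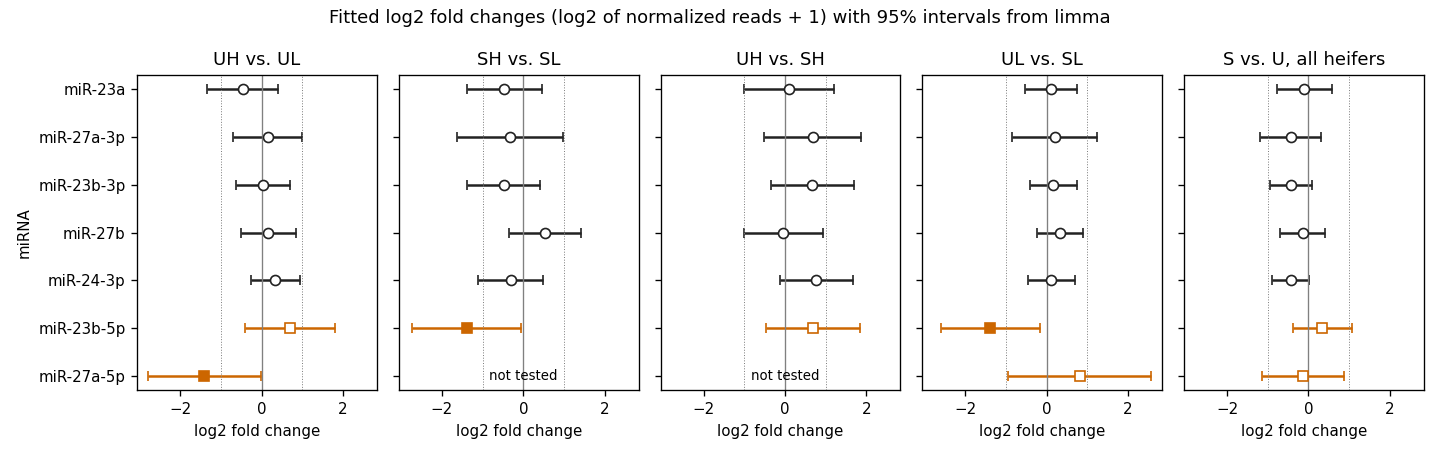
Fitted log2 fold changes (x axis) with 95% intervals from limma for each member (y axis) in 5 comparisons, with circles for the 5 abundant arms and squares for the 5p arms, filled where called. Dotted lines mark -1 and 1. Every interval of an abundant arm includes 0, and the 3 filled squares are 5p arms with no library above 4 reads.

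Over all heifers, S vs. U gave no call among 7 members with limma, none with an unadjusted P under 0.05, and 4.62% among 238 miRNAs. All 5 abundant arms were lower in S, with a median log2 difference of -0.42 against -0.13 over all miRNAs tested. miR-24-3p differed by -0.44 (SE 0.22, 95% interval -0.90 to 0.02, limma unadjusted P = 0.0607, adjusted P = 0.657) and miR-23b-3p by -0.42 (interval -0.94 to 0.10). The unadjusted limma P of miR-24-3p passed under 0.05 when at least 10 reads were required (0.0462), and without UH3 (0.0460), SL2 (0.0371) or SH1 (0.0452), and that of miR-23b-3p without SH2 (0.0377). None of these passed the adjustment or the fold threshold. These are the same libraries as in the pairwise comparisons. With heifer as a block the unadjusted P of miR-24-3p in S vs. U was 0.0573 (limma adjusted P = 0.559).

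Heifer by heifer, miR-24-3p was lower in S in 5 of 6. Its change was -0.71, -0.85 and -0.74 in H1, H2 and H3, and -0.44, 0.42 and -0.33 in L1, L2 and L3, on the log2(normalized reads + 1) scale. miR-23b-3p also was lower in 5 of 6 heifers, by -0.87, -0.54 and -0.61 in H and -0.38, 0.04 and -0.15 in L. For both miRNAs the changes of all 3 H heifers lay below those of all 3 L heifers. How many other miRNAs had such an order was not counted. miR-27a-3p was lower in 4 of 6, all 3 H heifers among them, while miR-23a was lower in 3 of 6 and ranged from -1.08 in H2 to 0.57 in H1.

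**Figure D4:**
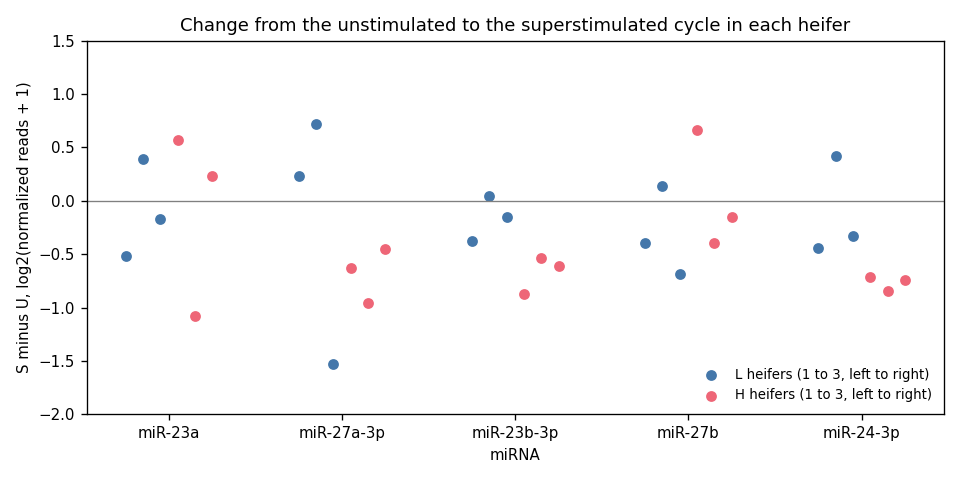
Change from U to S in each of the 6 heifers (points, L1 to L3 in blue and H1 to H3 in red) on the log2(normalized reads + 1) scale (y axis) for the 5 abundant arms (x axis). The 3 H heifers lie together below 0 for miR-24-3p (-0.85 to -0.71) and miR-23b-3p (-0.87 to -0.54), while miR-23a shows no common direction.

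Whether the change between cycles differed between H and L was tested as an interaction over all 12 libraries. The log2 difference in change, H minus L, was -0.65 for miR-24-3p (95% interval -1.58 to 0.27, limma adjusted P = 0.847) and -0.51 for miR-23b-3p (interval -1.55 to 0.53, limma adjusted P = 0.888). It was 0.36 for miR-27b, 0.01 for miR-23a and -0.49 for miR-27a-3p, each with an interval that includes 0. The 1 member called of 7, against 5.04% of 238 miRNAs, was miR-23b-5p, at -2.09 (SE 0.70, interval -3.55 to -0.64, limma unadjusted P = 0.00734, adjusted P = 0.847), again from 7 reads in all. miR-23b-5p passed the filter only through UH and SL, the groups that held its reads, so this call is not separate evidence either.

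The likeness of patterns across the 12 libraries is given as Pearson's r of log2(normalized reads + 1), as a description, among 107 miRNAs with a mean of at least 10 normalized reads. All points share the library's depth and scaling. In the order of likeness no product had the other product of its own cluster as its closest partner. miR-23a and miR-27a-3p, from the same primary transcript, had r = 0.03, and miR-23b-3p and miR-27b had r = 0.15. These values rested on few libraries: without the pair farthest from the median of the first-named miRNA they were 0.39 (without UH1 and SH1) and 0.67 (without SH1 and SH3). The median over the 10 pairs of abundant arms was 0.37 (0.03 to 0.65), against 0.02 over all pairs of miRNAs. miR-23a and miR-24-3p had r = 0.10 over 12 libraries and r = 0.80 without UH1 and SH3, the libraries where miR-24-3p was farthest from its median.

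miR-23b-3p had, by Pearson's r, the closest partners of the 5 abundant arms. Its level followed that of miR-126-5p, an endothelial miRNA (r = 0.95), miR-1468 (r = 0.95) and miR-30a-5p (r = 0.92), and without SH1 and SH3, where miR-23b-3p was lowest, the values were 0.83, 0.82 and 0.84. Its paralog miR-23a ranked at 15 and miR-24-3p at 12 in likeness to it by Pearson's r. By ranks (Spearman's rho) miR-23a was as close to it as miR-126-5p, at 0.83 each. The rho was 0.75 for miR-1468, 0.78 for miR-30a-5p and 0.66 for miR-24-3p. For miR-24-3p the closest were let-7f (0.79), miR-23b-3p (0.65) and miR-126-3p (0.64), and for miR-27b let-7g (0.79), miR-107 (0.71) and let-7a-5p (0.66). miR-27a-3p was closest to miR-184 (0.66), miR-24-3p (0.63) and miR-26b (0.60), and miR-23a to miR-339b (0.68), miR-320a (0.62) and miR-361 (0.61). Without UH1 and SH1, where miR-23a was lowest, these last 3 values were 0.21, 0.65 and -0.04.

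In the study miR-23a served as the denominator of the haemolysis check, in which a rise of miR-451, carried by red blood cells, marks lysis. The number of miR-451 reads per miR-23a read ranged from 0.0854 in UH2 to 0.639 in SH1. In UH1 the ratio was 0.409 (9 reads to 22), the fifth highest of the 12, although miR-451 had few reads. Per read of miR-24-3p the same library was at 0.0968, the second lowest. The levels of 3 erythrocyte miRNAs were summed (miR-451, miR-486 and miR-144, the last at 0 in some libraries of UL, SL and SH). This sum ranged from 1121 to 2756 in UH and from 1758 to 8362 in SH. Little of it came from miR-451, whose unscaled count per library spanned 9 to 53 in UH and 9 to 72 in SH. The sum of 4 leukocyte and platelet miRNAs ranged from 1538 to 2969 in UH and from 1826 to 2632 in SH. In UL the sums were 1189 to 2622 and 1753 to 1988, and in SL 982 to 2261 and 2468 to 3429. Endothelial sums were 4059 to 7001 in UL and 3523 to 6413 in SL. The part of these sources in the members' levels was not tested.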

How the data were processed

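Bovine plasma EV RNA was sequenced from 12 libraries (4 groups of 3) with a kit that adds molecular indices. Per the study's methods the authors trimmed adapters with cutadapt, collapsed reads by molecular index, mapped them to UMD3.1 with Bowtie2 (2.2.2, as in the submitters' processing notes), kept perfect matches and annotated them against miRBase, and tested TMM-normalized data with edgeR. The deposited values are treated as a score: reads per 1000000 mapped, of which only the whole part was kept. A script found the value of 1 read in each library (4.48 to 7.93) and recovered 100.0% of values as whole reads, each within the cut of the decimals. Because the values as deposited are not counts, no count test was run.

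TMM factors were computed from the recovered reads, which were scaled to the mean depth. limma 3.58.1 (R 4.3.3) was fitted with a mean-variance trend on log2(normalized reads + 1), two-sided, with Benjamini-Hochberg adjustment over all miRNAs tested. Pairwise comparisons used only their 6 libraries, and S vs. U and the interaction used all 12. Ratios were tested by exact permutation and shares given with exact 95% intervals (scipy 1.17.1). The fits were tested on simulated data. Replicate libraries of a group differed by more than sampling noise. The named miRNAs were all members, their 3 closest others by Pearson's r, and other listed arms of the hairpins or miRNAs sharing a seed. The members, lists and tests were chosen with earlier results of these data known. No genome of the build used was at hand, so no coordinates are given. Separate heifers make up each group, so the P values of UH vs. UL and SH vs. SL measure the spread between animals. The limma fits between cycles and of the interaction took the libraries of a heifer as independent, except where heifer was a block.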

Additional observations from a re-analysis of the deposited data

Results flagged for a closer look

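miR-23b-5p was called in the interaction test of the change between cycles, at -2.09 (H minus L, log2 scale, limma unadjusted P = 0.00734, adjusted P = 0.847). The call did not pass the adjustment and does not establish a difference between high and low responders. It rested on 3 reads in UH and 4 in SL, with 0 in UL and SH. The arm passed the filter only through UH and SL, and H1 had 0 reads of it in both cycles. The fitted value depends on the read added before taking logs.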

How the results depend on the processing

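Depth limits the 5p arms most, as no library had over 4 of their reads. Members called in UH vs. UL, SH vs. SL, UL vs. SL and the interaction went from 1 to 0 when at least 10 reads were required. This was fixed in advance, since that filter left no 5p arm to be tested. With 2 reads added in place of 1, calls in UH vs. UL, SH vs. SL and UL vs. SL also went to 0. UH vs. UL had 0 calls with 0.5 reads added, without the mean-variance trend and with all 4 groups in 1 fit, and SH vs. SL had 0 with no filter. With the replicate block, SH vs. SL and UL vs. SL had 0, and other calls were the same. In UH vs. UL and SH vs. SL that block joined different heifers of equal number, which are not pairs. Between cycles, deviations from group means correlated at -0.05 to 0.21 between the U and S libraries of 1 number, so the data alone do not show the pairing. The study states that the same heifers gave both cycles. That equal numbers mark 1 heifer is an assumption, which the labels do not state. Leaving out 1 library gave 0 to 1 members called in UH vs. UL. There miR-27a-5p was called without UL2, and tested but not called without UH2 or UH3. Without UL1 or UL3 it had reads in only 1 UL library, failed the filter and was not tested. Without UH1, miR-23b-5p was called in its place. SH vs. SL gave 0 to 1 (0 without SL2, SH1, SH2 or SH3) and UH vs. SH 0 to 1 (1 without UH1, miR-23b-5p). The interaction gave 1 to 2 (2 without UL2). The 1 call in UL vs. SL and the 0 in S vs. U held. These fits pooled the spread over the groups.

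No abundant arm was called under any alternative, although without UH2 the unadjusted limma P of miR-23a in UH vs. UL was 0.0309 and without SH3 that of miR-27b in SH vs. SL was 0.0397, and several small differences changed sign. Without TMM, miR-23b-3p in UH vs. UL was at -0.083, miR-27b in UH vs. SH at 0.02 and the interaction of miR-23a at -0.029. Leaving out 1 library in turn, the log2 differences in UH vs. UL ranged from -0.96 to 0.10 for miR-23a, -0.14 to 0.12 for miR-23b-3p, -0.088 to 0.52 for miR-27a-3p and -0.18 to 0.39 for miR-27b. miR-27a-3p in SH vs. SL ranged from -0.91 to 0.072. In UH vs. SH the ranges were -0.39 to 0.66 for miR-23a and -0.38 to 0.18 for miR-27b. In UL vs. SL they were -0.18 to 0.35 for miR-23a, -0.049 to 0.31 for miR-24-3p and -0.38 to 0.60 for miR-27a-3p. In S vs. U they were -0.38 to 0.14 for miR-23a, -0.25 to 0.032 for miR-27b and -0.49 to 0.01 for miR-27a-5p, and the interaction of miR-23a was -0.56 to 0.49. Of the log2 ratios, miR-23a to miR-23b-3p in SH vs. SL ranged from -0.25 to 0.26, miR-27a-3p to miR-27b in UH vs. UL from -0.27 to 0.14, and miR-23 to miR-27 in S vs. U from -0.21 to 0.039. The cause was not tested.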
